A study of Mus musculus with 6 samples.

Results

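The 10 genes described here encode the core of the mTOR pathway: the kinase of both mTOR complexes (Mtor), the subunit that both share (Mlst8), the subunits of mTORC1 (Rptor, Akt1s1), the scaffold of mTORC2 (Rictor), the TSC proteins (Tsc1, Tsc2), the GTPase Rheb (Rheb) and the mTORC1 substrates S6K1 and 4E-BP1 (Rps6kb1, Eif4ebp1). They were chosen by symbol, as 10 of the 35427 genes whose values could be read from the deposited table. The table holds 6 libraries of bone marrow-derived macrophages (BMDMs), which are macrophages grown in M-CSF from marrow cells of C57BL/6 mice. In 3 libraries the cells were untreated (Ctrl), and in the other 3 they had received zoledronic acid (ZA), a nitrogen-containing bisphosphonate given against bone loss, for 12 h. The ZA concentration used for these libraries is not given in the sources used here, and neither group carries an engineered allele. The replicates are labelled by number alone, so the p-values below measure the spread between these libraries, which may be technical.

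mTORC1 joins signals from growth factors, amino acids and energy, and sets protein synthesis, lysosome formation and autophagy. GTP-bound Rheb on the lysosomal membrane activates the kinase, and the TSC proteins switch Rheb off. Amino acids act through the Rag GTPases, which bring mTORC1 to the lysosome. mTORC2 phosphorylates AKT and related kinases. ZA inhibits farnesyl diphosphate synthase, the mevalonate pathway enzyme that supplies the farnesyl group of Rheb. In macrophages mTORC1 is known as a brake on autophagy and as a regulator of the inflammatory response, and it is controlled largely by phosphorylation and by location, which RNA sequencing does not measure.

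The link of Rheb to this pathway is written at the end of its coding sequence, where the last 4 codons encode the box that is farnesylated. The substrates are recognised in another way, through a short TOS motif that Raptor binds, which is 5 codons long in both. The coding windows below, from GENCODE vM21 (GRCm38) and read 5′ to 3′ on the coding strand, show where these elements lie, with their codons in capitals. The Rheb window is chr5:24803667-24803696 on the minus strand, codons 175 to 184 of 184. The Eif4ebp1 window is chr8:27275082-27275108 on the plus strand and ends with codon 117, the last before the stop. The Rps6kb1 window is chr11:86544596-86544625 on the minus strand and starts at codon 28 of 525.
Rheb: tcacaaggaaagtcttcgTGCTCGGTGATG
Eif4ebp1: gaagagtcacaaTTTGAGATGGACATT
Rps6kb1: TTTGACATAGACCTGgaccagccagaagat
The farnesylation box thus closes the Rheb protein and the TOS motif closes 4E-BP1, whereas the TOS motif of S6K1 lies near its start. The windows are coding exon sequence of the reference, not of these libraries. In the same annotation Mlst8 and Tsc2 lie on chromosome 17, Rptor and Rps6kb1 on chromosome 11, and the others on a chromosome each. Of the stretches of 150 bases in their transcripts, the read length, 6.59% for Mlst8, 4.98% for Tsc2 and 0.0641% for Rps6kb1 also occur in transcripts of another gene, and 0% for the other 7.

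The libraries held between 41230600 and 42155808 fragments. All 8 macrophage markers were above a mean of 1 FPKM (fragments scaled by gene length and by the library's total). In sum they lay between 23610 and 27520 FPKM in Ctrl libraries and between 24500 and 28010 in ZA libraries. Lyz2, at a mean of 22700 FPKM, made up most of this sum and overlapped between the groups, as did Mertk, Fcgr1 and Itgam. Cd14 met at 210.1 FPKM. Every ZA library was above every Ctrl library for Adgre1 (525.8 to 537.7 FPKM in Ctrl, 566.5 to 593.3 in ZA). The same held for Csf1r (767.3 to 777.1 and 824.8 to 848) and Cd68 (1318 to 1340 and 1343 to 1351). The summed level of 10 neutrophil and progenitor markers was 33.4 to 48.8 FPKM in Ctrl and 30.1 to 35.6 in ZA, with Ly6g at 0 in every library. Every ZA library was below every Ctrl library for Mpo (2.285 to 2.639 FPKM in Ctrl, 1.528 to 2.029 in ZA). This also held for Elane (2.348 to 2.536 and 1.702 to 2.065) and Ngp (3.588 to 5.416 and 3.322 to 3.583). The groups of the remaining markers of this set overlapped. Of the 9800 genes with a mean of at least 1 FPKM, 18.1% had groups without overlap. Whether the markers differ from this share was not tested. Of the fibroblast markers 3 of 4 were above 1 FPKM, with sums of 17.2 to 31.2 in Ctrl and 15.4 to 22.2 in ZA. Dendritic cell, T cell and erythroid markers were all under a mean of 1 FPKM, as were all B cell markers except Cd79b and all osteoclast markers except Ctsk. The part of other cells in the values below was not tested, and in bulk RNA fewer cells of a type and less RNA per cell cannot be told apart.

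The 10 genes were all expressed in BMDMs and spanned an 18.0-fold range of mean levels. Rheb and Eif4ebp1 were the most abundant, at means over the 6 libraries of 41.4 and 40.3 FPKM, above 86.2% and 85.8% of the 9800 genes tested. Tsc2 and Akt1s1 followed at 11.4 and 11.2 FPKM. Rptor, Tsc1, Mtor and Mlst8 lay close together at 7.11, 6.10, 5.96 and 5.72 FPKM. Rps6kb1 and Rictor were the lowest, at 2.88 and 2.31 FPKM, with only 13.9% of tested genes below Rictor.

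Within this order several neighbours could not be separated by their spread. Rheb exceeded Eif4ebp1 in 4 of 6 libraries, Tsc2 exceeded Akt1s1 in 4 of 6, Tsc1 exceeded Mtor in 5 of 6 and Mtor exceeded Mlst8 in 4 of 6. The other steps did not overlap. The lowest Eif4ebp1 value was 37.9 FPKM against a highest Tsc2 value of 11.8, and the lowest Akt1s1 value was 10.7 against a highest Rptor value of 7.40. The lowest Rptor value, 6.79, was above the highest Tsc1 value, 6.23. The lowest Mlst8 value, 5.46, was above the highest Rps6kb1 value, 3.13, and the lowest Rps6kb1 value, 2.74, was above the highest Rictor value, 2.52.

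**Figure D1:**
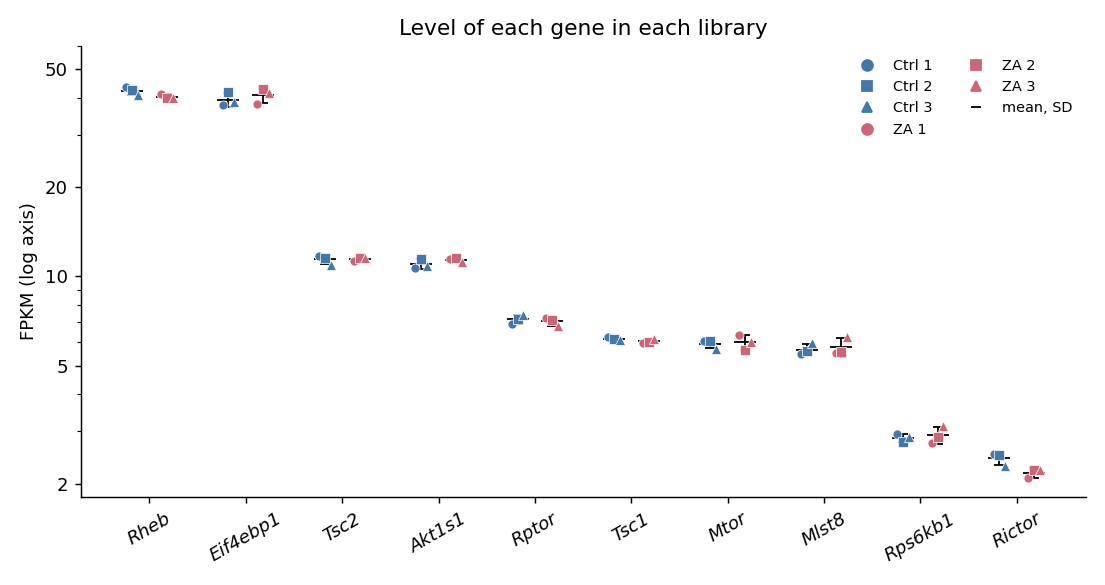
FPKM on a log axis for the 10 genes, ordered by their mean, with 1 point for each of the 3 Ctrl and 3 ZA libraries and bars for the mean and SD of each group. Rheb and Eif4ebp1 sit near 41.4 and 40.3 FPKM and Rictor is lowest at 2.31, and within a gene the 2 groups lie close to each other.

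None of the 10 genes passed the test between ZA and Ctrl. Expression was compared as log2(FPKM + 1) with limma over the 9800 genes with a mean of at least 1 FPKM. Adjusted p-values of the 10 genes ran from 0.409 to 0.986, so that 0 of 10 were under 0.05, where 0.367% of all genes tested (36 genes) were. At an unadjusted p under 0.05 the count was also 0 of 10, against 12.3% of all genes tested. With voom on the recovered fragments, 0 of 10 had an adjusted and 1 an unadjusted p under 0.05. Groups without overlap were found for 1 of 10, Rictor, against 18.1% of all genes tested.

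The differences of the 10 genes were small on the log2(FPKM + 1) scale. Their median log2 fold change was 0.01, equal to the median of 0.01 over all genes tested, and their median absolute log2 fold change was 0.023 against 0.041. The means of 6 genes were higher and of 4 lower in ZA, which became 5 and 5 after centring each library on its median and 4 and 6 after quantile normalization. The 95% intervals of all 10 together ran from a 0.856-fold to a 1.12-fold difference in FPKM + 1. Larger changes than these in FPKM + 1, in either direction, lay outside the interval of each gene. For genes of low FPKM, such as Rictor, the range left for FPKM itself is wider.

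**Figure D2:**
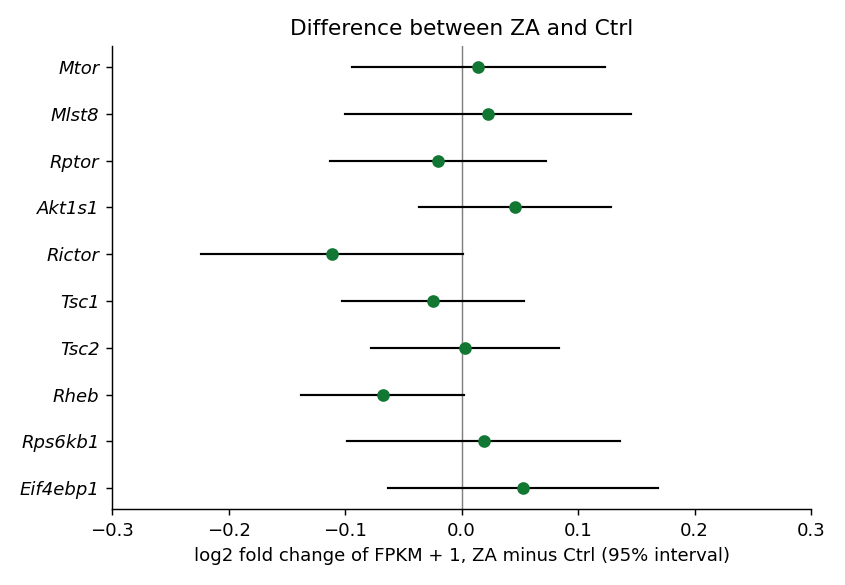
Points are log2 fold changes of FPKM + 1 (ZA minus Ctrl) from limma for the 10 genes, and lines are their 95% intervals. All 10 intervals include 0, and those of Rictor, which ends at 0.001, and Rheb, which ends at 0.0023, only just do.

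Among the subunits of both complexes, the kinase gene Mtor had values of 6.04, 6.06 and 5.69 FPKM in Ctrl 1 to 3 and of 6.35, 5.66 and 5.99 in ZA 1 to 3. The ZA libraries thus held both the highest and the lowest value of the 6. The log2 fold change of Mtor was 0.01 (SE 0.05), with a 95% interval from -0.09 to 0.12. Its sign turned when ZA 1 was left out, to -0.021, and when Ctrl 3 was left out, to -0.011.

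Mlst8 encodes the subunit that sits on the kinase domain. It was measured at 5.46, 5.59 and 5.95 FPKM in Ctrl and at 5.51, 5.56 and 6.26 in ZA, with library 3 the highest in each group. Its log2 fold change was 0.02 (SE 0.05) and became -0.028 without ZA 3 and -0.0002 without Ctrl 1. In GENCODE vM21, 22.5% of the exon bases of Mlst8 lie opposite exons of Bricd5. Bricd5 itself was listed at no more than 0.048 FPKM in any library, and whether the authors counted by strand is not given in the sources used here.

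Of the mTORC1 subunits, Rptor encodes Raptor, the scaffold that holds substrates in place. Its values were 6.89, 7.20 and 7.40 FPKM in Ctrl and 7.23, 7.13 and 6.79 in ZA, with overlapping groups. The log2 fold change of Rptor was -0.02 (SE 0.04), and it was 0.0004 without Ctrl 3 and 0.0035 without ZA 3. Akt1s1 encodes PRAS40, an AKT substrate that inhibits mTORC1. It was measured at 10.7, 11.5 and 10.8 FPKM in Ctrl and at 11.4, 11.5 and 11.2 in ZA. Ctrl 2 lay among the ZA libraries, and the log2 fold change was 0.05 (SE 0.04), with a 95% interval from -0.04 to 0.13. In GENCODE vM21, exons of Tbc1d17 and Mir707 share 2.38% of the exon bases of Akt1s1 on its own strand and lie opposite 2.9%. Tbc1d17 was at 22.98 to 26.39 FPKM in these libraries.

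Rictor, the scaffold that defines mTORC2, was the gene with the largest difference among the 10. Its values were 2.52, 2.50 and 2.29 FPKM in Ctrl 1 to 3 and 2.08, 2.23 and 2.22 in ZA 1 to 3. The lowest Ctrl library, Ctrl 3, was thus still above the highest ZA library, by 0.056 FPKM. The mean was 2.43 ± 0.13 FPKM in Ctrl and 2.18 ± 0.08 in ZA (SD, n = 3 each), which is 10.5% lower.

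The test did not call the Rictor difference. The log2 fold change on the log2(FPKM + 1) scale was -0.11 (SE 0.05), with a 95% interval from -0.22 to 0.001, an unadjusted limma p of 0.0516 and an adjusted p of 0.409. Because 1 is added to a low FPKM, this value understates the log2 ratio of the mean FPKM, which was -0.16. Rictor rested on 815 to 995 fragments per library, for which counting alone gives a coefficient of variation (CV) of 3.31%, compared with observed CVs of 5.28% in Ctrl and 3.77% in ZA. Without Ctrl 3 the log2 fold change was -0.14 with an unadjusted p of 0.0281, and with voom on the recovered fragments it was -0.16 with an unadjusted p of 0.0175. It was -0.094 without Ctrl 1, -0.098 without Ctrl 2 and -0.09 without ZA 1, with unadjusted p-values of 0.139, 0.136 and 0.146. Adjusted p-values ranged from 0.248 to 0.643 over 13 alternatives.

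**Figure D3:**
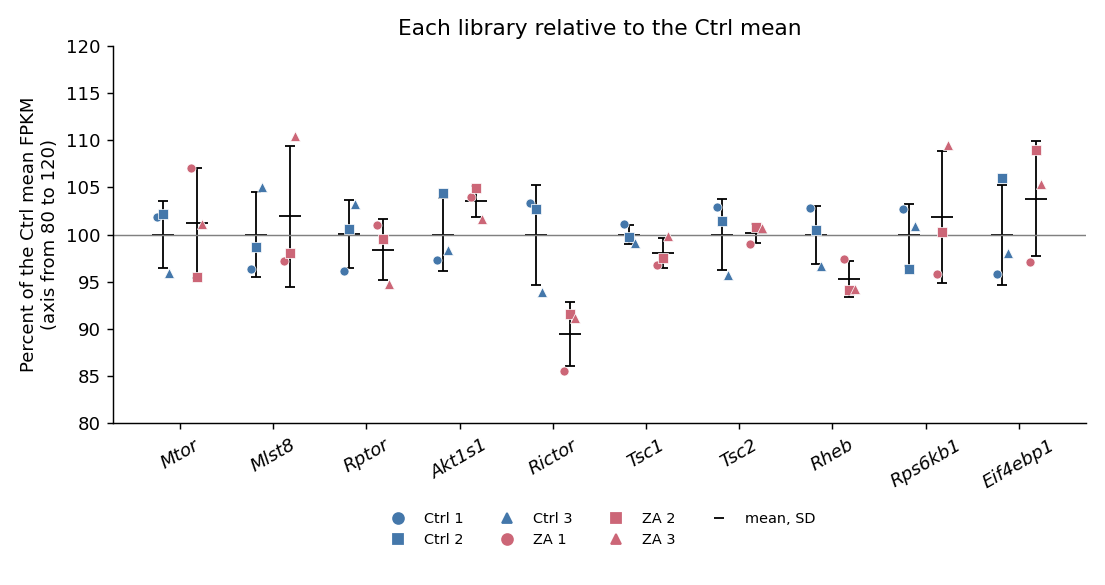
Each library's FPKM as a percent of the gene's mean in Ctrl, on an axis that does not start at 0, with the mean and SD of each group. The ZA libraries of Rictor lie between 85.6% and 91.6%, below its lowest Ctrl library at 93.9%, whereas the groups of the other genes overlap.

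The TSC genes had the lowest CVs of the 10 over the 6 libraries. Tsc1 encodes hamartin, which stabilises TSC2. It was measured at 6.23, 6.14 and 6.11 FPKM in Ctrl and at 5.96, 6.01 and 6.15 in ZA, with a CV over all 6 libraries of 1.61%, below the 2.17% that counting alone gives. The log2 fold change of Tsc1 was -0.02 (SE 0.03).

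Tsc2 encodes tuberin, the GTPase-activating protein of Rheb. It had values of 11.8, 11.6 and 10.9 FPKM in Ctrl and of 11.3, 11.5 and 11.5 in ZA, and all ZA values lay inside the Ctrl range. Its log2 fold change was 0.0027 (SE 0.035), the smallest of the 10, and its sign changed under centring, under quantile normalization and without Ctrl 3, ZA 2 or ZA 3. Exons of Pkd1, at 4.76 to 5.55 FPKM in these libraries, lie opposite 7.2% of the exon bases of Tsc2.

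Rheb, the GTPase that activates mTORC1, was measured at 43.6, 42.7 and 41.0 FPKM in Ctrl 1 to 3 and at 41.35, 39.94 and 40.00 in ZA 1 to 3. The groups overlapped because ZA 1 was above Ctrl 3. The means were 42.4 ± 1.3 FPKM in Ctrl and 40.4 ± 0.8 in ZA (SD, n = 3 each), a difference of -4.71%.

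The Rheb difference did not pass the test, with a log2 fold change of -0.07 (SE 0.03), a 95% interval from -0.14 to 0.0023, an unadjusted limma p of 0.0562 and an adjusted p of 0.419. The unadjusted p was 0.0268 after centring on the median, 0.0206 without Ctrl 3 and 0.0373 without ZA 1, but 0.181 without Ctrl 1, 0.13 without Ctrl 2, 0.144 without ZA 2 and 0.128 without ZA 3. The adjusted p stayed between 0.282 and 0.678 over 14 alternatives. Rheb and Rictor were the members with the smallest p-values, ranking 1316 and 1236 by p among the 9800.

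The substrate genes differed widely from each other in level. Rps6kb1, which encodes the kinase S6K1, was measured at 2.94, 2.75 and 2.88 FPKM in Ctrl and at 2.74, 2.87 and 3.13 in ZA, so that ZA held both extremes. Its log2 fold change was 0.02 (SE 0.05) and turned to -0.021 without ZA 3 and to -0.0006 without Ctrl 2. Eif4ebp1 encodes 4E-BP1, which holds the cap-binding protein eIF4E inactive until mTORC1 phosphorylates it. Its values were 37.9, 41.9 and 38.8 FPKM in Ctrl and 38.4, 43.1 and 41.6 in ZA. The number 2 library was the highest in each group, and the log2 fold change was 0.05 (SE 0.05), with a 95% interval from -0.06 to 0.17.

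Ratios of genes within a library do not depend on the scaling between libraries, and 8 were compared with two-sided exact permutation tests. For 3 libraries against 3 the smallest p is 0.1, so none could pass 0.05. In Ctrl the ratio of Rictor to Mtor was 0.417, 0.413 and 0.402, and the ZA libraries gave 0.328, 0.394 and 0.371. Every ZA library was below every Ctrl library, with ZA 1 the lowest, and the exact p was 0.1 (0.4 adjusted over the 8 ratios). The log2 difference was -0.18, and -0.10 without ZA 1.

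The ratio of Rheb to Tsc2, the GTPase to the protein that switches it off, took the values 3.71, 3.68 and 3.75 in Ctrl, compared with 3.66, 3.47 and 3.48 in ZA. The groups again did not overlap (exact permutation p = 0.1, adjusted 0.4), by a margin of 0.026 between Ctrl 2 and ZA 1, and the log2 difference was -0.07. The other 6 ratios overlapped. Rptor to Rictor, the scaffold of mTORC1 to that of mTORC2, averaged 2.95 ± 0.26 in Ctrl and 3.24 ± 0.21 in ZA (SD). Tsc1 to Tsc2 averaged 0.539 ± 0.016 in Ctrl and 0.527 ± 0.006 in ZA, and Rps6kb1 to Eif4ebp1 averaged 0.0726 ± 0.0061 and 0.0710 ± 0.0043.

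**Figure D4:**
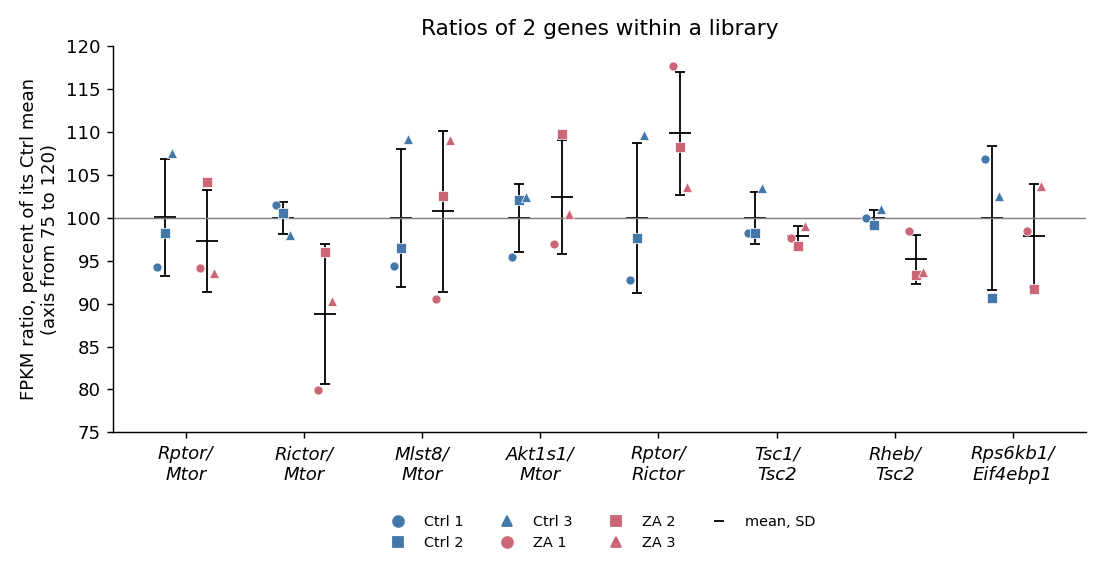
FPKM ratios of 8 gene pairs in each library as a percent of the ratio's mean in Ctrl, on an axis that does not start at 0, with the mean and SD of each group. Only for Rictor to Mtor and for Rheb to Tsc2 are all 3 ZA libraries below all 3 Ctrl libraries.

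The pattern of Mtor over the libraries was then compared with that of other genes. As a description over 6 libraries that share their 2 groups, Pearson's r of log2(FPKM + 1) with Mtor lay between -0.41 for Eif4ebp1 and 0.42 for Rheb. Among the 9799 other genes tested, those most like Mtor were Sash1, Hsf4, Akip1, Ddx31 and Armc1, with r between 0.979 and 0.991. In all, 72 of the 9799 genes had an r over 0.9. With 6 libraries and so many genes compared, an r this high can arise by chance. How many of the 72 would arise that way was not tested, so these names do not show shared regulation.

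The rest of the pathway was described with 11 lists holding 111 other genes, of which 102 were tested. Prr5, Rragb, Sesn3, Ddit4l, Prkaa2, Grb10, Prkca, Slc7a5 and Slc7a11 averaged under 1 FPKM. At an unadjusted p under 0.05 there were 7 higher and 3 lower in ZA, against 7.5% and 4.85% of all genes tested in those directions. This is 9.8% of the listed genes, near the 12.3% of all genes. Among the 102, 18 genes had groups without overlap, near the 18.1% of all genes tested. The median log2 fold change of the listed genes was 0.01, as over all genes tested, and 1 of the 102, Fdps, had an adjusted p under 0.05.

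Fdps, the farnesyl diphosphate synthase that ZA inhibits, rose in ZA. Its values were 30.9, 30.2 and 30.4 FPKM in Ctrl and 37.3, 38.2 and 42.8 in ZA. All ZA libraries were above all Ctrl libraries, at a ratio of means of 1.29. The log2 fold change was 0.36 (SE 0.05) with an adjusted limma p of 0.0453. The direction held in all 14 alternatives, but the adjusted p was under 0.05 in 8 of them. It was 0.124, 0.2003 and 0.101 without Ctrl 1, 2 and 3, and 0.163 without ZA 2, 0.23 with no filter on low values and 0.0995 without a variance trend.

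Fdps belongs to the list of Rheb farnesylation and membrane delivery, where 5 of 6 means were higher in ZA. Including Fdps, 2 had an unadjusted p under 0.05 (33.3%, against 12.3% of all genes tested). The other was Pde6d, which encodes a chaperone that carries prenylated proteins between membranes. It was measured at 11.6, 12.5 and 11.7 FPKM in Ctrl and at 13.5, 12.8 and 13.0 in ZA, without overlap (log2 fold change 0.12, SE 0.04, adjusted limma p 0.258). Fnta, the alpha subunit of the farnesyltransferase, had a log2 fold change of 0.06 (SE 0.03). This list was chosen with earlier results of these data known, and whether it differs from all genes was not tested.

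Around TSC and Rheb, Rhebl1, a close relative of Rheb, was measured at 1.27, 1.54 and 1.73 FPKM in Ctrl and at 1.94, 1.64 and 1.92 in ZA. ZA 2 lay below Ctrl 3, and with 67 to 102 fragments per library the log2 fold change was 0.17 (SE 0.08, adjusted limma p 0.414). Tbc1d7, the remaining subunit of the TSC complex, had a log2 fold change of -0.06 (SE 0.08). Of 6 tested genes for other subunits and assembly factors of the mTOR complexes 0 had an unadjusted p under 0.05. They included Mapkap1, a defining subunit of mTORC2 (log2 fold change -0.06, SE 0.04), Prr5l, another mTORC2 subunit (0.07), and Telo2, an assembly factor (-0.06).

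Among 16 tested genes of growth factor and energy inputs, 1 was higher and 1 lower at an unadjusted p under 0.05. This is 12.5% of them, near the 12.3% of all genes tested. Ddit4 encodes REDD1, a stress-induced inhibitor that acts through TSC. It was measured at 3.15, 2.63 and 2.30 FPKM in Ctrl and at 2.16, 2.36 and 1.63 in ZA. Ctrl 3 lay below ZA 2, and the log2 fold change was -0.28 (SE 0.11, adjusted limma p 0.355), or -0.18 without ZA 3. Its unadjusted p was 0.11 without Ctrl 1, 0.0632 without Ctrl 2 and 0.108 without ZA 3. It was under 0.05 in 9 of 13 alternatives and lowest, at 0.00407, with the replicate block. The adjusted p of Ddit4 stayed between 0.108 and 0.607. Prkag1, for a regulatory subunit of the energy sensor AMPK, was measured at 22.5, 24.0 and 21.6 FPKM in Ctrl and at 24.1, 24.2 and 24.8 in ZA. Its groups did not overlap, with a log2 fold change of 0.10 (SE 0.04, adjusted limma p 0.36). The unadjusted p of Prkag1 was 0.0812 without Ctrl 1, 0.122 without Ctrl 3, 0.0667 without ZA 2 and 0.0938 without ZA 3. It was under 0.05 in 8 of 14 alternatives and lowest, at 0.0051, without Ctrl 2. Strada, which activates the AMPK kinase LKB1, had a log2 fold change of 0.09.

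The amino acid arm held no gene at an unadjusted p under 0.05, against 12.3% of all genes tested. The counts were 0 of 12 tested Rag GTPase, Ragulator and folliculin genes and 0 of 16 GATOR, KICSTOR and sensor genes. Log2 fold changes ran from -0.04 to 0.04 in the former, where Lamtor4 and Lamtor5, subunits of the Ragulator that anchors the Rags, were at 0.04 each and Rragd, a Rag GTPase, at -0.04. In the latter they ran from -0.08 to 0.10, with Itfg2 and Kptn, both of the KICSTOR complex, at the ends and Nprl2, a subunit of GATOR1, at 0.08. The groups of Itfg2 and Kptn did not overlap, where 18.1% of all genes tested had such groups.

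Of 14 tested substrates and translation effectors, 3 were higher and 1 lower at an unadjusted p under 0.05 (28.6%, against 12.3% of all genes tested). All were without overlap, as were 18.1% of all genes tested, and none had an adjusted p under 0.05. Whether this list differs from all genes was not tested. Rps6, the ribosomal protein that S6K1 phosphorylates, was measured at 345.0, 344.3 and 356.0 FPKM in Ctrl and at 372.8, 362.8 and 378.3 in ZA (log2 fold change 0.09, SE 0.02, adjusted limma p 0.194). Maf1, a repressor of RNA polymerase III, was measured at 52.9, 54.1 and 54.5 FPKM in Ctrl and at 57.8, 56.3 and 57.1 in ZA (0.08, SE 0.02, adjusted p 0.232). Eif4a1, the helicase of the cap-binding complex, was the lower one, with 306.0, 307.1 and 299.4 FPKM in Ctrl and 284.7, 292.8 and 290.2 in ZA (-0.07, SE 0.02, adjusted p 0.236). The remaining one, named after its values were seen, was Eif4b, a cofactor of this helicase, with a log2 fold change of 0.06 (SE 0.02). Its unadjusted p was 0.0299, and between 0.0522 and 0.107 when Ctrl 1, Ctrl 3, ZA 1, ZA 2 or ZA 3 was left out. It was under 0.05 in 7 of 14 alternatives. Both Rps6 and Eif4a1 have processed pseudogenes, and how shared reads were counted is not given in the sources used here. As shares of the Ctrl mean, Rps6 differed by 6.55%, Maf1 by 6.02% and Eif4a1 by -4.92%.

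In the lists on autophagy and lysosomes, 0 of 9 tested mTORC1 substrates had an unadjusted p under 0.05. Ulk1, the kinase that starts autophagy, had a log2 fold change of 0.08 (SE 0.05), Mitf, a lysosomal transcription factor, of -0.06, and Uvrag, of a lipid kinase complex, of 0.06. TFEB and TFE3 are transcription factors that mTORC1 keeps out of the nucleus. Of 11 targets of these factors, 0 were higher and 1 lower at an unadjusted p under 0.05 (9.09%, against 12.3% of all genes tested). That was Atp6v1h, a subunit of the lysosomal proton pump, with 30.4, 29.7 and 29.9 FPKM in Ctrl and 27.9, 28.9 and 27.9 in ZA (-0.09, SE 0.03, adjusted limma p 0.255). Wipi1, which binds the lipid of forming autophagosomes, had a log2 fold change of 0.07 and groups that did not overlap. Other genes of these lists also had groups without overlap, in both directions, as did 18.1% of all genes tested.

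Of 6 tested genes for mTORC2 substrates and proteins downstream of them, 1 had an unadjusted p under 0.05 (16.7%, against 12.3% of all genes tested). That was Sgk3, a kinase related to AKT, at 11.7, 12.3 and 13.2 FPKM in Ctrl and at 12.7, 13.9 and 14.1 in ZA. The groups overlapped, and the log2 fold change was 0.13 (SE 0.05, unadjusted limma p 0.0442, adjusted p 0.391). Without Ctrl 1, Ctrl 2, ZA 2 or ZA 3 the unadjusted p of Sgk3 was between 0.1 and 0.149. It was under 0.05 in 6 of 14 alternatives and lowest, at 0.00667, with the replicate block. The adjusted p stayed between 0.134 and 0.651. Foxo1 and Foxo3, transcription factors excluded from the nucleus by AKT, had log2 fold changes of 0.09 and -0.04. Of 8 tested ATF4 targets that mTORC1 raises, 0 had an unadjusted p under 0.05. Atf4, the transcription factor itself, was at 0.06, Asns, the asparagine synthetase, at 0.11, and Aldh18a1, of proline synthesis, at -0.06.

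**Figure D5:**
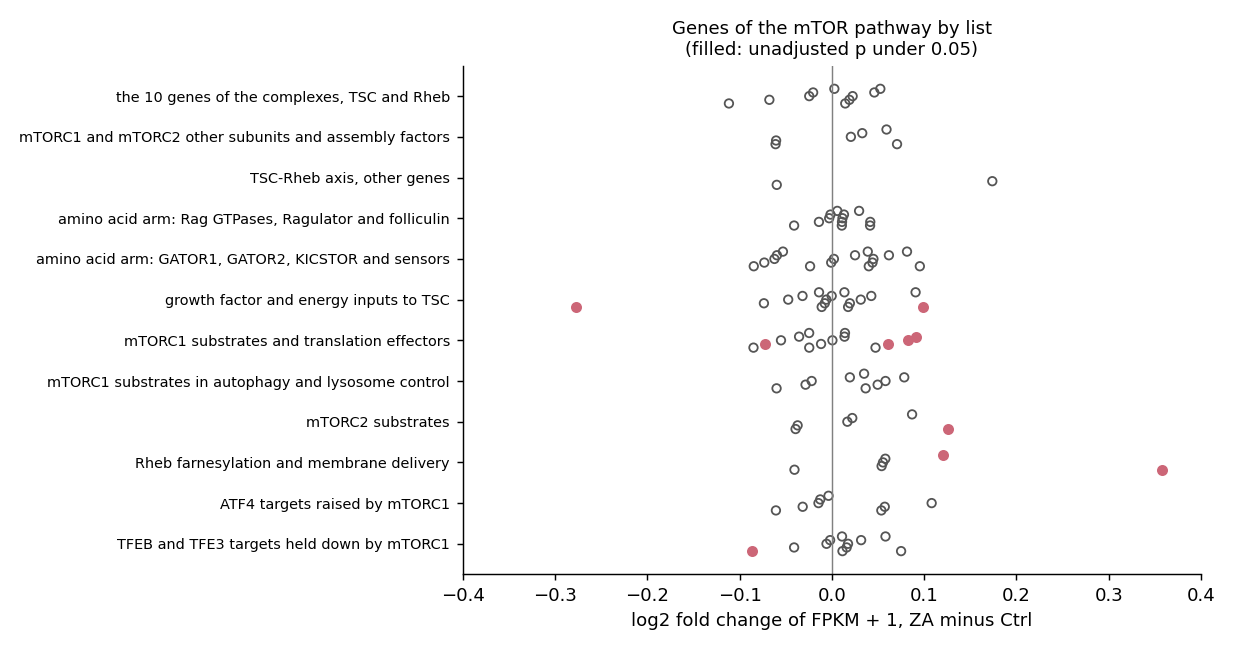
Log2 fold changes of FPKM + 1 (ZA minus Ctrl), 1 point per gene, for the 10 genes and the 11 lists of the pathway, where filled points have an unadjusted p under 0.05. The 10 genes have 0 filled points, and the point farthest to the right is Fdps at 0.36.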

How the data were processed

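Total RNA of BMDMs was sequenced on an Illumina NovaSeq in paired-end reads of 150 bases. The study's methods name the VAHTS Universal V10 kit, and the labels name this and a SMARTER kit. The authors deposited 1 table of FPKM values per gene and library, with no further scaling stated. The submitters' processing notes name the build mm9. The aligner, counter and annotation are not given in the sources used here. Most rows of this table have lost their separators. Symbol and values were told apart by how the numbers are written and, if this left a choice, by requiring whole fragments once gene length and library total are multiplied back. This restored 35427 of 35434 rows, including all 11 intact ones identically, and 3000 of 3000 simulated rows. The same rule gave fragment numbers and library totals.

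Log2(FPKM + 1) was compared with lmFit and trended eBayes of limma 3.58.1, run in R 4.3.3. Tests were two-sided and covered 9800 genes averaging 1 FPKM or more. P-values were adjusted by the Benjamini-Hochberg method. The fit was tested on simulated data. Log2 fold changes are ZA minus Ctrl. Alternatives were a 0.1 pseudocount, no filter, a minimum of 5 FPKM, median centring, quantile normalization, no trend, the replicate number as a block, voom and leaving out each library, and for ratios FPKM + 1. The named genes are the 10 members, the 3 genes of each list with the smallest p, list genes with an adjusted p under 0.05, and the 5 genes most like Mtor. The members and lists were chosen with earlier results of these data known. Exon overlaps and coding windows come from GENCODE vM21 on GRCm38, a build other than the one noted by the submitters. Python 3.11.15, NumPy 2.4.6, pandas 2.3.3 and Matplotlib 3.10.9 were used.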

Additional observations from a re-analysis of the deposited data

How the results depend on the processing

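The count of genes with an adjusted p under 0.05 was 36 and depended on the processing: it was 1 with no filter, 1 without a variance trend, 20 with quantile normalization, 132 with voom, and 0 to 25 when a library was left out. Of the 10 members 0 had an adjusted p under 0.05 in any of these fits. At an unadjusted p under 0.05 the members' count of 0 became 2 with median centring (Rictor and Rheb), 1 with quantile normalization, 1 without a trend and 1 with voom (Rictor each time), and 0 to 2 when a library was left out. The list count of 10 ran from 6, without ZA 3, to 12, without ZA 1, when a library was left out, and was 13 with no filter. Of 138 member values under alternatives, 116 kept their direction and side of this threshold. The sign of Tsc2 turned to -0.0096 with centring and to -0.014 with quantile normalization. With a library left out, log2 fold changes ran from -0.021 to 0.05 for Mtor, -0.028 to 0.053 for Mlst8, -0.045 to 0.0035 for Rptor, -0.026 to 0.022 for Tsc2, -0.021 to 0.051 for Rps6kb1, -0.12 to 0.023 for Tbc1d7 and -0.0702 to 0.0031 for Rragd. The cause of these shifts was not tested.

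The replicate block gave 78 genes in place of 36 and 1 member, Rheb, at an unadjusted p of 0.0343. Across genes, the departures from group means correlated between libraries of equal number by 0.284, 0.0393 and 0.28. Among the 3 libraries of the other group, each of the 6 correlated best with the library of its own number. Departures within a group sum to 0, so these correlations are not independent of each other. Lyz2, for example, rose from 20470 to 24410 FPKM over Ctrl 1 to 3 and from 21270 to 24670 over ZA 1 to 3. Col1a2 fell from 9.927 to 5.176 and from 7.719 to 4.765. The labels do not state a pairing, and the main fit left the numbers out. Whether libraries of equal number share a source was not tested. Libraries of a group differed by more than counting alone gives, with a mean chi-square per gene of 3.52 to 9.73. Abundant genes can weigh heavily in this mean. It cannot tell separate cultures from separate preparations of the same culture. At 815 to 3153 fragments, counting alone gives the members CVs of 1.81% to 3.31%, which limits what could be detected together with 3 libraries per group.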
